A study of Mus musculus with 3 samples.

Results

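The adhesion G protein-coupled receptors are the receptors whose mouse symbols begin with Adgr, and they were described across the cell types of the postnatal lung. Every symbol in the deposited feature list that read Adgr, 1 lower-case letter, and a number was a member, which gave 27 of 28692 genes. The rule uses the symbols and no measured value, though the family was picked with earlier results of these data known. scRNA-Seq was performed on whole lung of 3 wild-type C57BL/6 mice, numbered 2, 3, and 4, which breathed room air (RA) from day of life 1 and were taken at postnatal day 14 (P14). Each mouse gave 1 10x v3 3' library of dissociated cells. The 3 mice formed 1 condition, so comparisons were made between cell types and not between treatments.

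The 3 files held 9644 cells, of which 7642 passed the filters on detected genes and mitochondrial UMIs (2386, 2601, and 2655 in mice 2, 3, and 4), and the median kept cell had 6033.5 UMIs. Of the barcodes, 12 occurred in more than 1 library, 8 of them among the kept cells. The cells fell into 30 clusters, 25 of which were named from markers, with 962 EC, 1306 epithelial, 1537 stromal, and 3024 immune cells, and 813 cells stayed unnamed. Each name stands for cells that resemble the type by its markers (EC-like, AT2-like, and so on) and is written without that ending. The members took no part in the clustering. The 6 EC markers summed to 9104 to 9363 CPM (the UMIs of a gene scaled to 1e+06 UMIs of the summed cells) in the ECs of the 3 mice, 101 to 179.6 in epithelial, 60.4 to 104 in stromal, and 183 to 213 in immune cells. Small shares of cells with a UMI can come from free RNA or doublets, and B cells, with a median of 3960.5 UMIs, are given as the background. No lymphatic EC, ciliated, or mesothelial cluster was named, and some clusters need a caveat. Among their leading genes, the venous cluster held Ccl21a, a lymphatic EC gene, and the arterial cluster Lyve1. The Col14a1-type fibroblast cluster held the cartilage genes Col2a1 and Acan among its own, and the interstitial macrophage cluster was mixed. The club cluster was uneven, with 16, 14, and 67 cells of median depth 49963.5, 33286.5, and 595 UMIs in mice 2, 3, and 4.

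As background, adhesion G protein-coupled receptors carry a long extracellular part that binds proteins of neighboring cells or of the matrix, followed by a domain that cuts the receptor into parts that stay bound to each other. The tail of the cut extracellular part can act as a tethered agonist of the membrane-spanning part, which signals through G proteins. In the lung the family is known for Adgrf5, a receptor of alveolar epithelium that restrains surfactant, in vessels for Adgrl4 and Adgra2 in angiogenesis, and in leukocytes for the EGF-type receptors, which include the macrophage marker Adgre1.

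The sequences shown here are the 250 bases before RefSeq transcript starts (GRCm38.p6, 5' to 3') of the receptors on which the results turn, namely the pair with the largest EC differences and 3 neighbors on chromosome 8 that were highest in 3 different classes. Capitals mark AGGAAG or CGGAAG on either strand, letters that hold the GGAA core of ETS-type sites, and the motifs do not overlap each other.
Adgrl4 (chr3:151437632-151437881, plus strand): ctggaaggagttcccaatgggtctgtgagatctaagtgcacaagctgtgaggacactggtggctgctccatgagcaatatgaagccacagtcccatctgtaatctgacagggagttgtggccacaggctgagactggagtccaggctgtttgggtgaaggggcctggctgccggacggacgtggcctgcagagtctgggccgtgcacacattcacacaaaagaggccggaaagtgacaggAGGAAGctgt
Adgrf5 (chr17:43360181-43360430, plus strand): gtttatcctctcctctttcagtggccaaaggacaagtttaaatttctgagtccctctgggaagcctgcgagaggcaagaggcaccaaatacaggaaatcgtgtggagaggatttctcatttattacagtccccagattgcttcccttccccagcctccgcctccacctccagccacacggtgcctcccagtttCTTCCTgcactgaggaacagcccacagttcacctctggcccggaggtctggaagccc
Adgrg5 (chr8:94923444-94923693, plus strand): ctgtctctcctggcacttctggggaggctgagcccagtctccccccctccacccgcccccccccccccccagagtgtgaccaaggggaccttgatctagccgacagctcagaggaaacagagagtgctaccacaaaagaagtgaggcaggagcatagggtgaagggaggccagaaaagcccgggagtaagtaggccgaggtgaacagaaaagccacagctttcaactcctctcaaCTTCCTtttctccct
Adgrg1 (chr8:94976859-94977108, plus strand): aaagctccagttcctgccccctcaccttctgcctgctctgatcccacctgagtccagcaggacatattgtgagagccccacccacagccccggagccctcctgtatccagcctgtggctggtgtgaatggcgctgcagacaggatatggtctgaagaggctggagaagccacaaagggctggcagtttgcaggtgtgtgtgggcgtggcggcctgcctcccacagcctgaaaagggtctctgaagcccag
Adgrg3 (chr8:95017442-95017691, plus strand): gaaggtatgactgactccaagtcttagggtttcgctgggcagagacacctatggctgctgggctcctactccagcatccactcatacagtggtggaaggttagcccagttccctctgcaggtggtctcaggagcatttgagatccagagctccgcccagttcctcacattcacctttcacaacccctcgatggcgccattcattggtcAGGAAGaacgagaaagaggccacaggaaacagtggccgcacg

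AGGAAG was found in 4 of these 5 windows and CGGAAG in none of them. Adgrf5 and Adgrg1 each have another promoter in the table, with neither motif, so 4 of the 7 promoters of these genes held one. Over all members, 20 of 27 matched the RefSeq promoter table, with 24 promoters, and 9 promoters (37.5%) held either motif, against 39.2% of the 32817 promoters in the table (AGGAAG 29.5%, CGGAAG 13.6%). The share among the members was close to that background, so the letters did not set the members apart. A match is a run of letters and not a site shown to be bound.

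Together the 27 genes gave 80884 UMIs in the kept cells. Adgrf5 (22207 UMIs), Adgre5 (15169), Adgrl2 (9425), Adgrg6 (9075), and Adgrl1 (6459) gave the most. The 3' counts are not levels per gene length, so each gene was compared with itself across cells. Of the 27 members, 16 passed the filter on low counts and were tested, and the other 11 had at most 69 UMIs each. Some of the 16 passed it through the class where they are high. Among them were Adgre4 (105 of 106 UMIs), Adgre1 (290 of 306), and Adgrg5 (102 of 112) in immune cells. Adgrd1 (94 of 99) and Adgrg2 (820 of 863) did so in stroma, and Adgrl4 (2548 of 2758) in ECs. For these, a higher call in that class is partly set by the filter and is no separate support. Each class was set against the mean of the other 3 with edgeR's quasi-likelihood test on UMI sums per mouse, and a member was called at a Benjamini-Hochberg adjusted p under 0.05 over all 14211 genes tested. The mean was taken over log levels, so a class could be called higher while its CPM lay below the average CPM of the others.

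In ECs, 10 of the 16 tested members were higher than in the mean of the other classes and 0 were lower, where 29.6% of all genes were higher and 30.1% lower. The median log2 difference of the 16 was 2.88 against -0.06 for all genes, and 3.09 for the 14 members with UMIs in all 4 classes. In stromal cells, 8 were higher and 5 lower, against backgrounds of 36.2% and 30.6%, with a median of 0.53 against -0.01. In epithelial cells, 3 were higher and 8 lower (backgrounds 34.5% and 36.6%), with a median of -1.54 against -0.09. In immune cells, 5 were higher and 10 lower (backgrounds 37.7% and 38.4%), with a median of -2.57 against -0.05. The immune class was mostly B cells (1784 of 3024 cells), so its values can lie far from those of rarer immune types. The highest class was EC for 7 members, stromal for 5, immune for 3, and epithelial for 1. By subfamily, all 4 latrophilin-type members (L), all 3 EGF-type members (E), 2 of 3 of A, 5 of 7 of G, 1 of 5 of F, and the sole member of D were tested, and none of the 3 of B nor the sole member of V. Adgrl1 had overlapping values between its 2 highest classes, stroma and ECs. How many of all tested genes lack such overlap was not counted. Against the mean of the other cell types, all 16 were higher in at least 1 type, as were 99.2% of 12398 genes, so that count says nothing about the members.

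**Figure D1:**
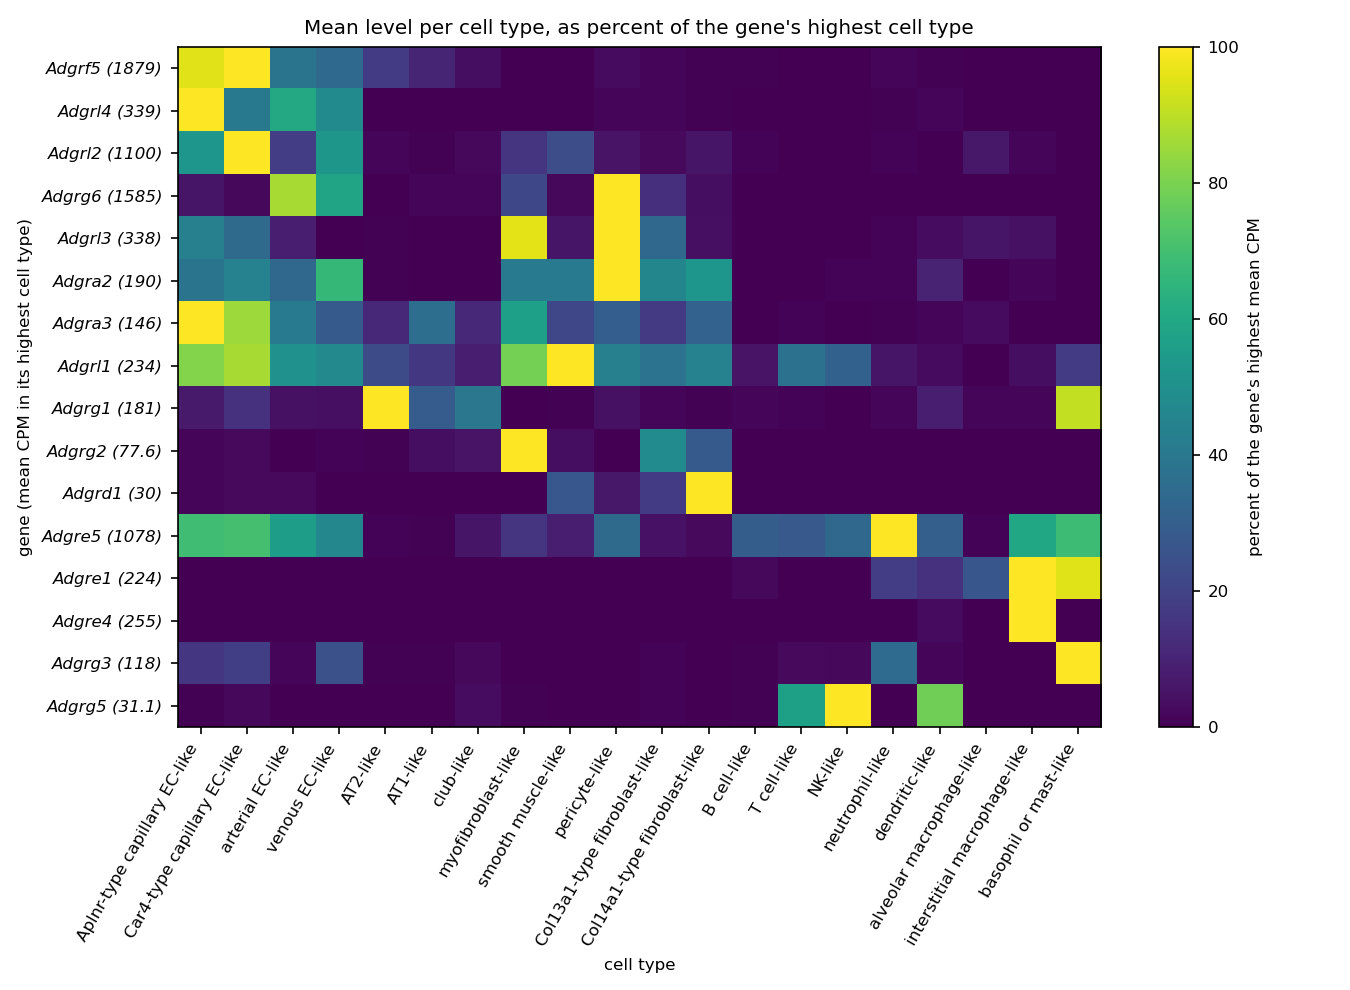
Heat map of the mean level of the 16 tested members (rows) in the 20 named cell types (columns), as percent of each gene's highest cell type, whose mean CPM stands beside the symbol. Adgrf5 peaks in Car4-type capillary ECs (1879 CPM), Adgrg6 in pericytes (1585), Adgrg1 in AT2 cells (181), and Adgre5 in neutrophils (1078).

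Adgrl4, a vascular receptor known from angiogenesis, had the largest class difference of the members in ECs. It measured 274, 265, and 255 CPM in the ECs of mice 2, 3, and 4, 1.83, 2.12, and 0.788 in stromal, 0.358, 0.186, and 2.54 in epithelial, and 0.874, 0.467, and 2.48 in immune cells. All 3 EC values lay far above every value of the other classes. The log2 difference was 7.39 ± 0.20 (SE; edgeR, Benjamini-Hochberg adjusted p = 1.5e-13). A UMI of Adgrl4 was found in 70.4% ± 1.96 of ECs (SD, n = 3) and in 0.188% of B cells, and, with cells thinned to 1000 UMIs, in 22.4% and 0.0491%. Too shallow for that thinning were 74 ECs, 82 epithelial cells, 68 stromal cells, and 107 immune cells.

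Adgrf5 was the most abundant member by UMIs, and its levels were high in 2 classes. ECs held 1485, 1433, and 1585 CPM and epithelial cells 272, 290.4, and 288, with no overlap between them, whereas stromal cells held 13.2, 15.8, and 7.57 and immune cells 7.57, 6.23, and 11.2. The log2 difference was 5.35 ± 0.13 for ECs and 2.78 ± 0.14 for epithelium (edgeR, Benjamini-Hochberg adjusted p = 6.7e-14 and 8.9e-11). UMIs of Adgrf5 were detected in 93.8% ± 1.47 of ECs, 88.8% of epithelial cells, and 2.63% of B cells. After thinning to 1000 UMIs, 70.3% of ECs, 25.6% of epithelial cells, and 0.749% of B cells held one.

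Adgrl2, a latrophilin that binds teneurins and FLRT proteins, was highest in ECs too, with 557, 649, and 606 CPM against 160.1, 140.3, and 169 in stromal, 17, 18.4, and 17.6 in epithelial, and 9.90, 6.54, and 12.2 in immune cells. The EC values did not overlap with those of any other class, and the log2 difference was 4.08 ± 0.09 in ECs and 1.63 ± 0.10 in stroma. Adgrl2 UMIs were present in 85.1% ± 5.97 of ECs and 2.98% of B cells, and in 41.8% and 0.901% after the same thinning. Adgra3, an orphan receptor, was at 114, 114, and 122 CPM in ECs, 57.1, 57.6, and 59.3 in stromal, and 20.7, 17.8, and 24.9 in epithelial cells, and at a mean of 1.07 in immune cells. Its classes kept that order in each mouse. The log2 difference of Adgra3 was 3.11 ± 0.11 in ECs. For epithelium it was 0.50 ± 0.14 (edgeR, Benjamini-Hochberg adjusted p = 0.0042), although epithelial levels lay below those of ECs and stroma. The mean of the other classes is one of log levels, which the low immune value pulls down. The epithelial call was lost without TMM scaling and without mouse 4.

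**Figure D2:**
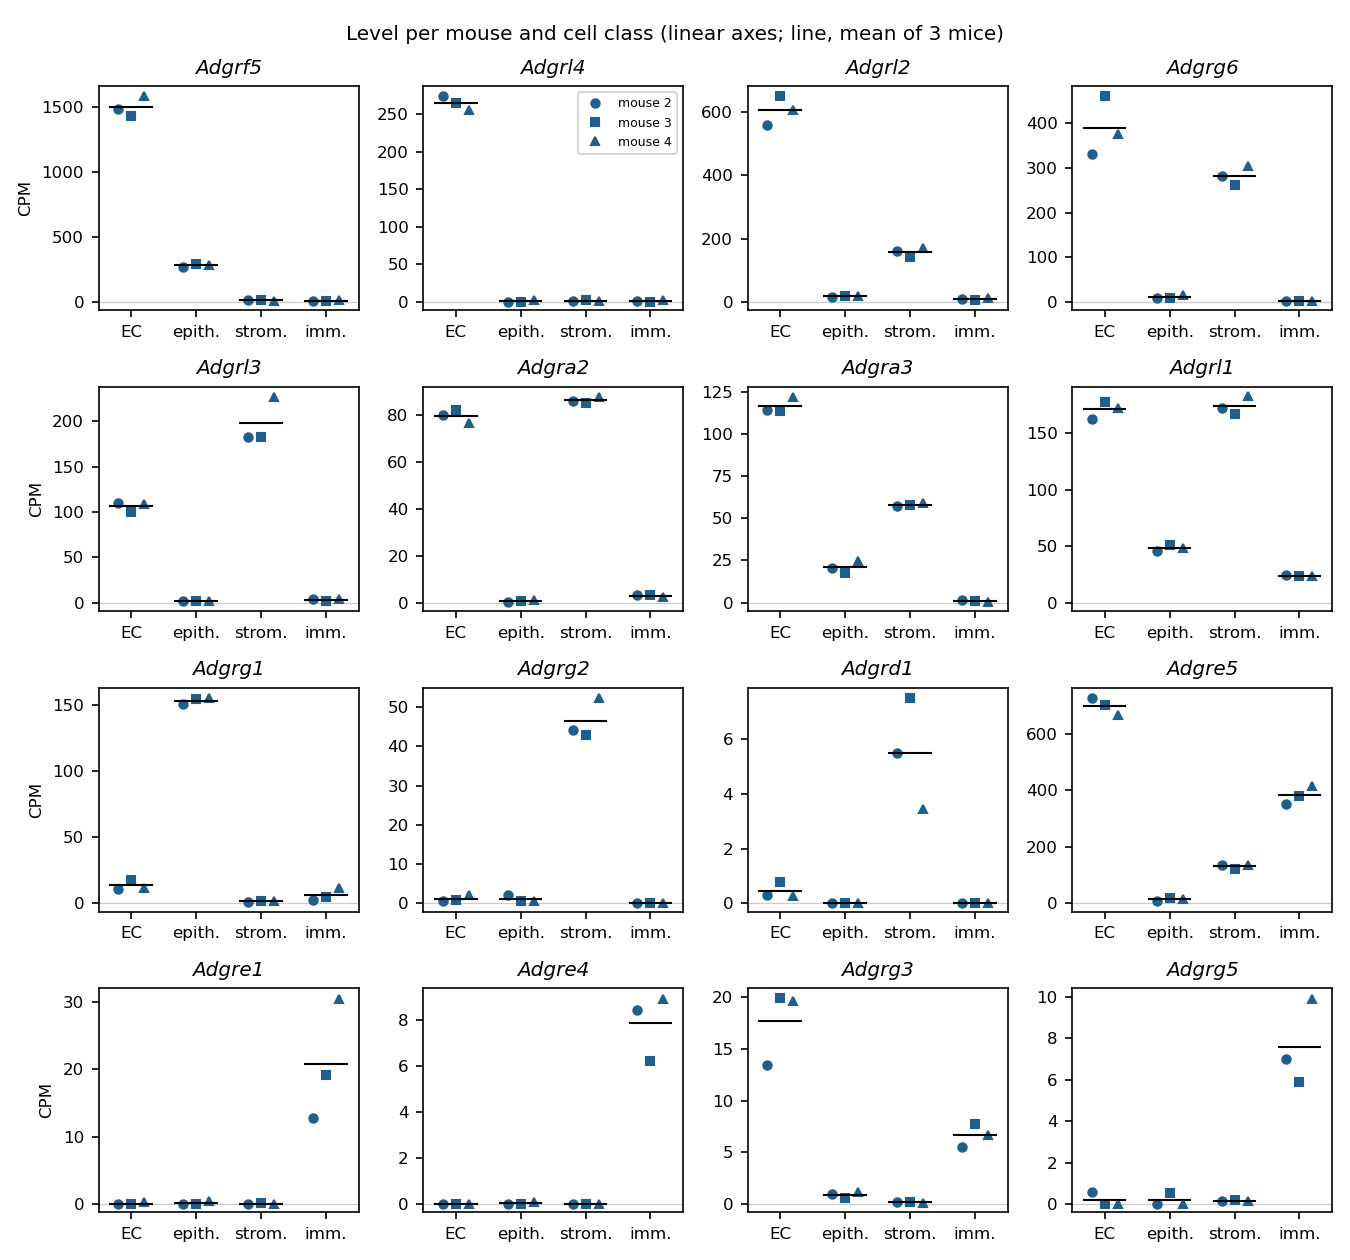
Level in CPM (linear axes) of each tested member in EC, epithelial (epith.), stromal (strom.), and immune (imm.) cells; each symbol is 1 mouse and each line the mean of 3 mice. Adgrl4 stands near 265 CPM in ECs and below 3 CPM in the other 3 classes, and Adgrl1 overlaps between ECs and stroma.

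The 4 EC types differed in these receptors. In the planned comparison of Car4-type with Aplnr-type capillary ECs, 1 member was higher and 2 were lower, where 4.01% and 4.62% of all genes were. Adgrl2 held 996, 1289.7, and 1013 CPM in Car4-type and 543, 553, and 634 in Aplnr-type capillary ECs, a log2 difference of 0.88 ± 0.16 with no overlap (edgeR, Benjamini-Hochberg adjusted p = 7.4e-05). Adgrl4 went the other way, with 160.0, 161, and 91.4 CPM in Car4-type and 327, 357, and 334 in Aplnr-type cells, a log2 difference of -1.36 ± 0.24 (adjusted p = 4.8e-05 by edgeR, but 0.567 by DESeq2). Adgrg6 was also lower in Car4-type cells, with a log2 difference of -1.34 ± 0.35, and this call was lost without mouse 3, where the edgeR adjusted p was 0.326, and with log-normalization before clustering, where it was 0.0616. Adgrf5 did not pass the test, with 1929, 1828, and 1879 CPM in Car4-type and 1725, 1733, and 1931 in Aplnr-type cells and a log2 difference of 0.02 ± 0.26. Both capillary types lay above arterial ECs (838, 749, and 586 CPM) and venous ECs (749, 606, and 574 CPM) in Adgrf5, without overlap.

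Adgre5, the receptor of the complement regulator CD55, was shared between vessels and leukocytes. Its levels were 728, 702, and 667 CPM in ECs, 352, 381, and 415 in immune, 136, 122, and 135 in stromal, and 9.68, 20.6, and 14.1 in epithelial cells, and no 2 classes overlapped. The log2 difference was 2.68 ± 0.10 for ECs, 1.85 ± 0.11 for immune cells, and -4.15 ± 0.15 for epithelium. For stroma it was -0.39 ± 0.12 (edgeR, Benjamini-Hochberg adjusted p = 0.0092), a call lost without TMM scaling, without mouse 3, and with classes taken from each cell's own marker UMIs. Cd55, its binding partner, was higher in immune cells by 3.81 ± 0.12 and in epithelium by 1.25 ± 0.13 on the log2 scale, and lower in ECs (-3.03 ± 0.20).

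Adgrg6, which is known from Schwann cell myelination and binds collagen IV and laminin, had its highest levels in pericytes and in ECs of the larger vessels. At class level it was at 331, 460.3, and 377 CPM in ECs and 281, 262, and 304 in stroma, without overlap, and at means of 10.8 in epithelium and 1.59 in immune cells. The log2 difference was 4.25 ± 0.13 for ECs and 3.78 ± 0.13 for stroma. Within these classes the types differed widely: pericytes held 1579, 1697, and 1478 CPM, arterial ECs 1019, 1479, and 1635, and venous ECs 1031, 1005, and 736, with overlap between pericytes and arterial ECs. Aplnr-type capillary ECs held 52.1, 127, and 92.9 CPM, Car4-type 34.1, 24.4, and 49.5, and smooth muscle 49.6, 16.9, and 43.5. Myofibroblasts had a mean of 342 CPM and Col13a1-type fibroblasts one of 217. Of the 4979 stromal UMIs of Adgrg6, 3016 lay in myofibroblasts and 1227 in pericytes. Each arterial and venous value lay above every capillary value of Adgrg6, and the share of cells with a UMI was 33.9% over all ECs but 74.4% in arterial and 92.5% in venous ECs, against 13.9% in Aplnr-type and 0.518% in B cells. Thinned to 1000 UMIs, the shares were 61.4% in arterial, 57.1% in venous, and 3.50% in Aplnr-type ECs.

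Pericytes and smooth muscle, the neighboring mural types, were a planned pair, and 5 members were higher in pericytes and 2 lower, against 11.8% and 13.5% of all genes. Adgrg6 differed by 5.27 ± 0.29 (edgeR, Benjamini-Hochberg adjusted p = 5.1e-21) and Adgrl3, a latrophilin, by 3.99 ± 0.21 on the log2 scale. Adgrl3 was at 347, 369, and 299 CPM in pericytes and 26.8, 6.42, and 22.8 in smooth muscle. Adgra2, known as a coreceptor with Reck for Wnt7 ligands in brain vessels, was higher by 1.12 ± 0.22, and Adgre5 by 1.91 ± 0.21. Adgrf5 was higher by 4.39 ± 0.68, from 46 and 10 UMIs; the EC markers summed to 197 to 413 CPM in pericytes and 73.9 to 91.9 in smooth muscle, and their part in that difference was not tested. A pair of latrophilins went the other way. Adgrl2 was at 37.3, 36.9, and 103 CPM in pericytes and 250.2, 251, and 282 in smooth muscle (-2.24 ± 0.26), and Adgrl1 at 94.7, 73.8, and 136 and 221, 255, and 228 (-1.29 ± 0.20). In Adgrg6, Adgra2, and these 3 latrophilins the mice of the 2 types did not overlap. The share of all genes without overlap between these types was not counted. The pericytes came from a cluster of 91 cells and a shallower one of 44 cells. Adgrg6 was at 1617, 1875, and 1632 CPM in the former (1208 UMIs) and 769, 62.8, and 205 in the latter. The latter values rest on 19 UMIs in all.

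**Figure D3:**
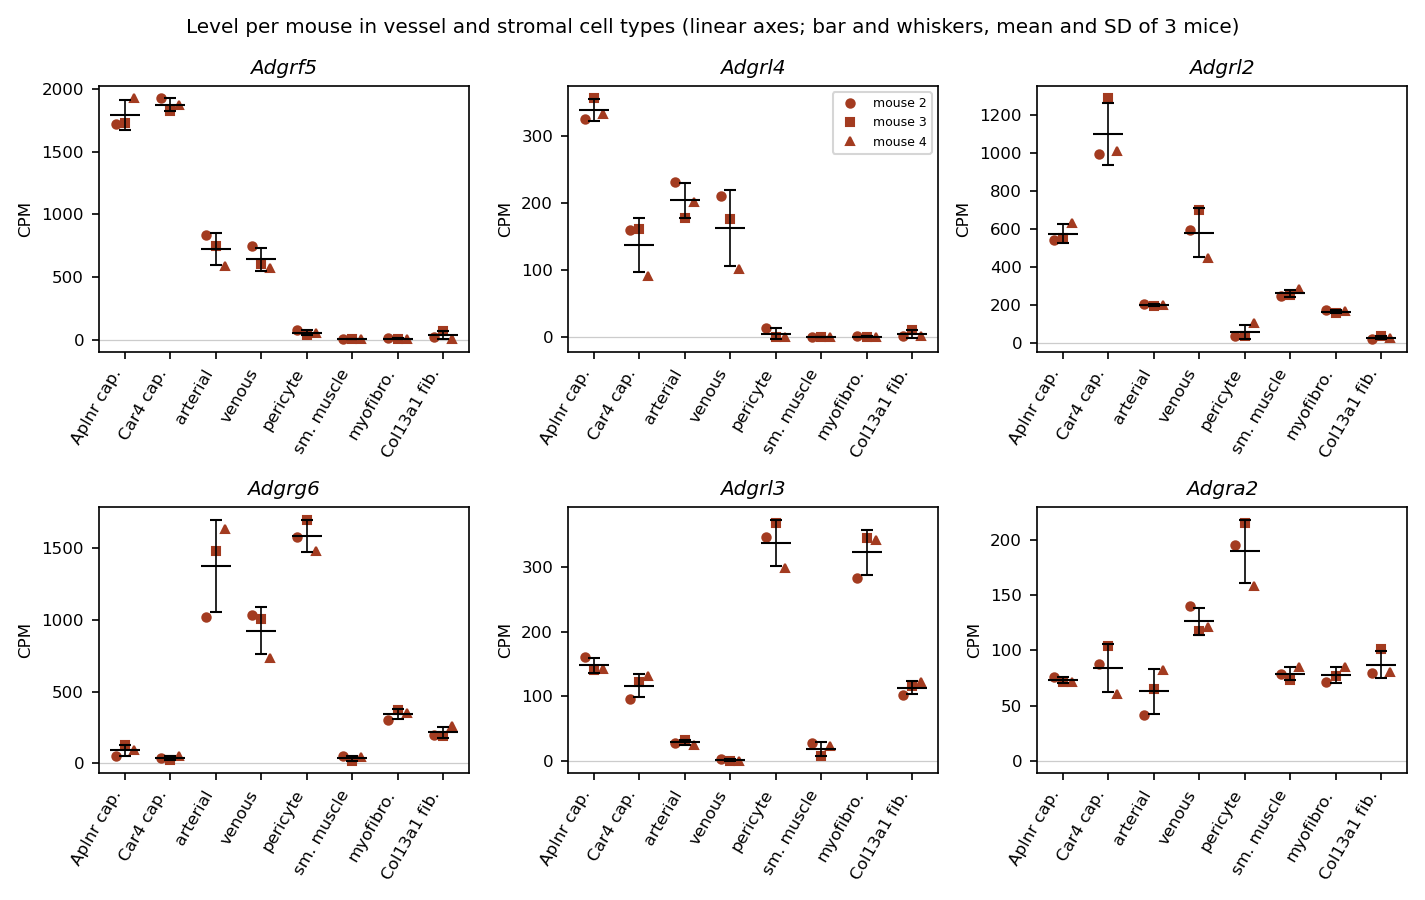
Level in CPM (linear axes) of Adgrf5, Adgrl4, Adgrl2, Adgrg6, Adgrl3, and Adgra2 in 4 EC types (Aplnr and Car4 capillary, arterial, venous), pericytes, smooth muscle (sm. muscle), myofibroblasts (myofibro.), and Col13a1-type fibroblasts; each symbol is 1 mouse, and bars and whiskers are the mean and SD of 3 mice. Adgrf5 is highest in both capillary types, whereas Adgrg6 is highest in pericytes, arterial, and venous ECs.

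Adgra2 was about as high in stroma (86, 85.4, and 87.8 CPM) as in ECs (80.2, 82.3, and 76.8), although the stromal values lay above the EC values in each mouse, and both lay far above epithelium (0.119, 0.743, and 1.15) and immune cells (3.49, 3.12, and 2.23). The log2 difference was 3.85 ± 0.12 for stroma and 3.55 ± 0.13 for ECs. Pericytes had 195, 215, and 158 CPM of Adgra2 and venous ECs 140.1, 118, and 121, the 2 highest types. The venous values overlapped with those of Col14a1-type fibroblasts (131, 81.7, and 87). Reck, its coreceptor, was higher in stroma by 2.99 ± 0.08 on the log2 scale and in pericytes than in smooth muscle by 2.58 ± 0.19. The Wnt7 ligands Wnt7a and Wnt7b were higher in epithelium, Wnt7b by 7.17 ± 0.32.

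Of the latrophilins, Adgrl1 and Adgrl3 had their highest class mean in stroma, for Adgrl1 with overlap with ECs. Adgrl3 was at 183, 183, and 227 CPM in stroma and 110.1, 99.9, and 109 in ECs, without overlap, and at means of 3.22 in immune and 1.92 in epithelial cells, with log2 differences of 4.41 ± 0.10 and 3.07 ± 0.12 for stroma and ECs. Among ECs, the capillary values of Adgrl3 lay above the arterial ones. They were 161, 140.3, and 143 CPM in Aplnr-type and 96, 122, and 131 in Car4-type against 27.2, 32.7, and 24.8 in arterial ECs. Venous ECs were lower still, with 1 UMI of Adgrl3 and a mean of 0.766 CPM. Adgrl1 overlapped between stroma (173, 167, and 183 CPM) and ECs (162, 178, and 173), and was lower in epithelium (45.8, 51.2, and 48.8) and immune cells (24.2, 23.5, and 23.8). Both were called higher, by 1.45 ± 0.05 and 1.26 ± 0.05. Among the partners of latrophilins, Tenm3 and Tenm4 were higher in stroma by 5.19 ± 0.49 and 5.28 ± 0.12, Flrt2 in ECs by 3.05 ± 0.18 and stroma by 2.75 ± 0.17, Flrt3 in epithelium by 3.58 ± 0.28, and Nrxn3 in stroma by 5.55 ± 0.19 on the log2 scale.

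Adgrg1, a receptor of collagen III and transglutaminase known from brain development and lymphocytes, was the sole tested member with its highest class in epithelium. It was at 150.3, 154, and 155 CPM in epithelial, 11.1, 17.6, and 12 in EC, 2.33, 4.67, and 11.7 in immune, and 1.17, 1.73, and 1.58 in stromal cells. The epithelial values stood above all others, with a log2 difference of 5.31 ± 0.16 (edgeR, Benjamini-Hochberg adjusted p = 3.6e-13). UMIs of Adgrg1 were found in 81.8% ± 4.25 of epithelial cells and 0.708% of B cells, and in 15.1% and 0.234% after thinning to 1000 UMIs. Basophil or mast cells, present with at least 10 cells in mice 3 and 4 only, held 164 and 165 CPM, AT2 cells 176, 181, and 186, and club cells 86.1, 49.9, and 80.1. Of its partners, Col3a1 was higher in stroma by 7.39 ± 0.21, and Tgm2 in ECs by 0.97 ± 0.14 and in AT1 over AT2 cells by 3.95 ± 0.26. Col3a1 is among the markers that named the stromal clusters, so its higher level there was partly set in advance.

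The epithelial class was mostly AT2 cells (1043 of 1306). AT1 cells, the thin gas-exchange cells, and AT2 cells, which make surfactant, differed in 6 members. Of the 16, 2 were higher in AT1 and 4 lower, against 16.4% and 17.0% of all genes. Adgrg1 was at 38.7, 58, and 60.7 CPM in AT1 against 176, 181, and 186 in AT2 cells, a log2 difference of -2.05 ± 0.26 (edgeR, Benjamini-Hochberg adjusted p = 5.9e-09; 0.0507 by DESeq2). Adgrf5 was at 176, 230.0, and 167 against 314, 334, and 343 CPM (-1.07 ± 0.27). Neither pair of groups overlapped between mice. Adgrl1 was lower in AT1 cells (-0.78 ± 0.19), and so was Adgrl2 (-1.45 ± 0.36), a difference that turned to 0.24 with no call when cells were clustered after log-normalization. Adgra3 was higher in AT1 cells, with 49.4, 54, and 54.6 CPM against 17.4, 14.3, and 19.3 (1.35 ± 0.16), and so was Adgrg6, with 26.9, 24, and 32.6 against 5.43, 5.63, and 6.23 (2.03 ± 0.39). The AT2 markers summed to 47858 to 68207 CPM in AT1 cells and 184736 to 206617 in AT2 cells, and the part of AT2 RNA in the AT1 values was not tested. AT1 cells came from a cluster of 129 cells (median 6208 UMIs) and a deeper one of 37 cells (median 35994 UMIs, 8 of them marked as doublets). Adgrg1 was at 17.7, 15.7, and 26.6 CPM in the former and 63.9, 84, and 83.2 in the latter, and Adgrf5 at 104, 147, and 103 and 263, 281, and 209. In both genes and both clusters the values lay below those of AT2 cells in each mouse.

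In stroma, Adgrg2, an orphan receptor known from the epididymis, had its highest level in myofibroblasts. Stromal cells held 44.1, 43, and 52.3 CPM, whereas the means were 1.18 in EC, 1.13 in epithelial, and 0.0519 in immune cells, with a log2 difference of 6.33 ± 0.27 for stroma. Myofibroblasts had 76.6, 76.2, and 79.9 CPM, Col13a1-type fibroblasts 30.9, 29.1, and 52.2, Col14a1-type fibroblasts 20.8, 28.3, and 16.8, and smooth muscle 0.671, 7.23, and 0.713. In pericytes Adgrg2 had 0 UMIs. Myofibroblasts came from 2 clusters, and in Adgrg2 the one led by Aspn, Hhip, and Wnt5a (102, 129.6, and 109 CPM) lay above the one led by Pdgfra and Agt (39.3, 31.5, and 46.7). Adgrg6 and Adgrl3 had the opposite order, with 224, 246, and 275 against 420.4, 477, and 434 CPM and 223, 248, and 265 against 372, 428, and 429. These cluster values are a description with no test.

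Adgrd1 gave 99 UMIs, 94 of them in stroma (5.50, 7.52, and 3.47 CPM). In epithelial and immune cells it had 0 UMIs, so that, with a floor of 3 counts over the class, the stromal level was at least 40.1-fold higher than in epithelium and at least 24.8-fold higher than in immune cells. Col14a1-type fibroblasts were the highest type, with 37.4, 33, and 19.6 CPM, above smooth muscle at 5.37, 10.4, and 8.56, without overlap. Floors and intervals cover counting error only.

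Col13a1-type fibroblasts, set against myofibroblasts, had 3 members higher and 6 lower, against 15.7% and 13.6% of all genes. The lower ones were Adgrl2 (19.5, 37.8, and 26.8 CPM against 173, 156, and 167 in myofibroblasts, -2.39 ± 0.24 on the log2 scale), Adgra3 (-1.61 ± 0.17), Adgre5 (-1.54 ± 0.22), Adgrl3 (-1.39 ± 0.15), Adgrg2 (-0.95 ± 0.31), and Adgrl1 (-0.94 ± 0.16). Adgrg2 lost its call without mouse 2, without mouse 3, and in DESeq2. Adgrd1 was higher from 12 UMIs against 1, a call that DESeq2 did not make. Adgrf5 (higher by 2.63 ± 0.45) and Adgrl4 (2.86 ± 1.02, from 12 and 6 UMIs) both lost their calls when cells marked as doublets were removed (0.17 and 0.23) and without mouse 3. The EC markers summed to 24 to 398 CPM in Col13a1-type fibroblasts and 14.4 to 51.5 in myofibroblasts.

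Among leukocytes, Adgre5 was found in most types, and Adgre1 was spread over several. Adgre5 was at 1017, 1176, and 1041 CPM in neutrophils, 660.5, 570.1, and 703 in the mixed interstitial macrophage cluster, 282, 312, and 354 in B cells, and 15.7, 10.2, and 0 in alveolar macrophages (4 UMIs in 71 cells). Within the mixed cluster, Adgre5 was not split by kind of cell. The alveolar macrophages lay below every other immune value named here. Adgrg3, a receptor known from granulocytes, was at 154 and 82.7 CPM in basophil or mast cells of mice 3 and 4 and 28.3, 59, and 36.6 in neutrophils, the former from 16 and 5 UMIs and the latter from 50 in all. Yet its highest class was EC (13.5, 19.9, and 19.7 CPM against 5.53, 7.79, and 6.70 in immune cells), with log2 differences of 3.74 ± 0.22 and 2.24 ± 0.25. Adgrg5, an orphan receptor of lymphoid and myeloid cells, gave 102 of its 112 UMIs in immune cells (6.99, 5.92, and 9.93 CPM, log2 difference 5.34 ± 0.48). It was at 35.2, 30.6, and 27.5 CPM in NK, 22.1, 26.7, and 24.3 in dendritic, and 6.19, 7.45, and 39.5 in T cells. In T cells, mouse 4 lay apart from the other 2, but these values rest on 15 UMIs in all. A cluster of 66 immune cells led by Il1rl1, Cxcr6, and Arg1 took no type. It held Adgrg5 at 25.4 CPM from 12 UMIs (6.58, 5.96, and 65.1 CPM in mice 2, 3, and 4).

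Neutrophils had 4 members higher than B cells and 0 lower, against 23.5% and 26.5% of all genes. They were Adgre5 (2.40 ± 0.19 on the log2 scale), Adgre1 (3.57 ± 0.48), Adgrg3 (6.72 ± 0.68, from 50 and 4 UMIs), and Adgrf5 (2.53 ± 0.59, from 32 and 59 UMIs). Adgrf5 lost its call without mouse 4. The EC markers summed to 55.1 to 242 CPM in neutrophils and 263 to 297 in B cells, and the AT2 markers to 427 to 903 and 275 to 594; their part in the Adgrf5 difference was not tested.

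Adgre1 and Adgre4, a pair of myeloid EGF-type receptors, gave 290 of 306 and 105 of 106 UMIs in immune cells. Adgre1 was at 12.8, 19.2, and 30.5 CPM and Adgre4 at 8.45, 6.23, and 8.94 CPM in immune cells, and both were far lower or at 0 in every other class. Adgre4 had 0 UMIs in ECs and stroma, so it was at least 24.3-fold and 44.2-fold higher in immune cells. Within them, 92 of the Adgre4 UMIs lay in the 115-cell interstitial macrophage cluster, at 266, 302, and 195 CPM, and the next type was dendritic cells at 4.03, 6.28, and 11. Adgre1 was at 148, 250.5, and 273 CPM in that cluster, 260.2 and 165 in the basophil or mast cells of mice 3 and 4, and 47.1, 66.5, and 65.3 in alveolar macrophages.

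That cluster held cells of different kinds, and its name held for a minority of them: 91 of 115 cells had no UMI of the complement genes C1qa, C1qb, and C1qc, whereas 23 had at least 5, a limit chosen after the counts were seen, with 2 cells at 3 to 7. In the 23 cells with C1q (median 5752 UMIs), Adgre1 was found in 20 cells, at 502, 545, and 510.2 CPM, and Adgre4 in 0. In the 92 other cells (median 1742 UMIs), Adgre4 was found in 51 cells, at 339, 500.5, and 309.9 CPM, and Adgre1 in 18, at 50.3, 57.2, and 134 CPM, with 13 cells holding both. The 2 receptors thus had opposite orders in the 2 subsets in each of the 3 mice, a description with no test. A marker list of nonclassical monocytes (Treml4, Ace, Spn, Eno3, Cd300ld) summed to 1567 CPM in the 92 cells and 88.3 in the 23. That list also summed to 740 CPM in neutrophils and 401 in basophil or mast cells, so it does not by itself name the 92 cells. The interstitial macrophage list summed to 114 and 15276 CPM, a contrast set in advance, since the list includes the C1q genes that made the split.

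**Figure D4:**
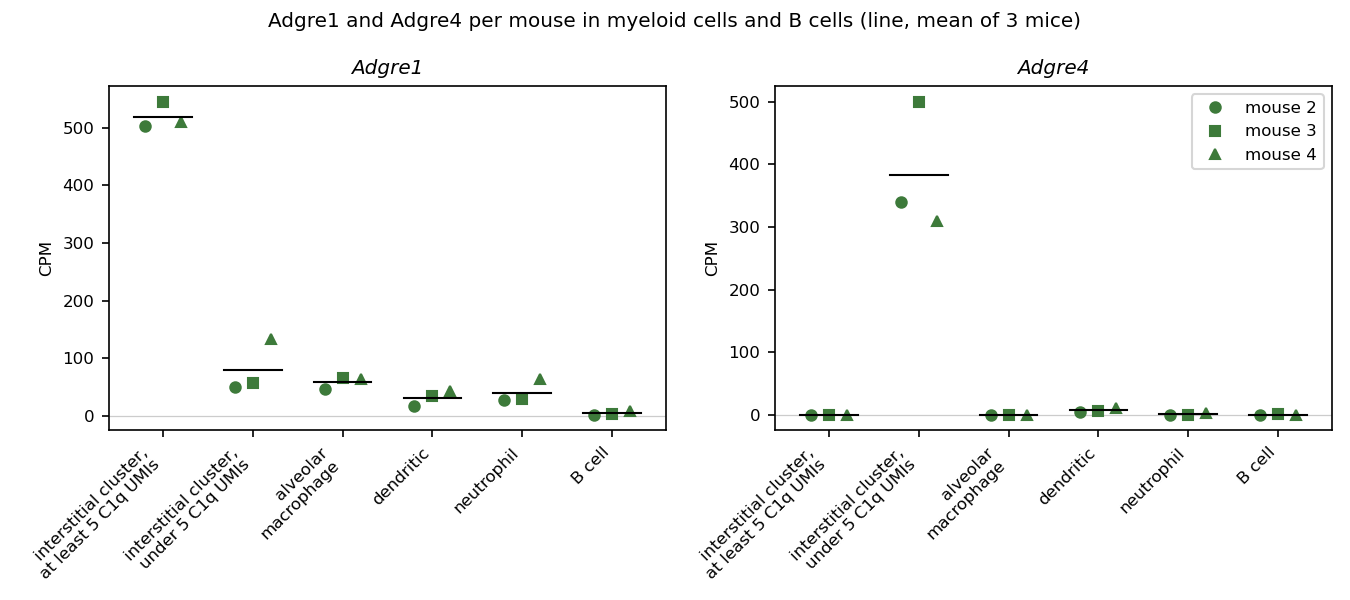
Level in CPM (linear axes) of Adgre1 (left) and Adgre4 (right) in the 2 subsets of the interstitial macrophage cluster, alveolar macrophages, dendritic cells, neutrophils, and B cells; each symbol is 1 mouse and each line the mean of 3 mice. Adgre1 is highest in cells with at least 5 C1q UMIs, where Adgre4 is at 0, and Adgre4 is highest in the cells with fewer.

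Alveolar macrophages, set against the whole 115-cell cluster, had 1 member higher and 3 lower, against 6.99% and 7.85% of all genes. Adgre5 had a log2 difference of -5.98 ± 0.44 (4 and 241 UMIs; edgeR, Benjamini-Hochberg adjusted p = 1.4e-15) and Adgre1 one of -1.65 ± 0.45, which lost its call without mouse 3 and without mouse 4. Adgre4 had 0 UMIs in alveolar macrophages and was at least 39.4-fold higher in the cluster, a call of edgeR that DESeq2 did not make (adjusted p = 0.712). Among the types, Adgre4 passed the filter on low counts through this cluster. Its call, 1 of the 3 lower, is thus partly set by the filter and is no separate support. Adgrl2 was higher, with 78.5, 61.4, and 78.4 CPM against 19.7, 8.64, and 19.5 (2.40 ± 0.64, from 34 and 6 UMIs), a call lost without mouse 2 and without mouse 3. Without mouse 3, 2 of the 16 members were called in this pair. Since that cluster mixes 2 kinds of cells, these differences are between alveolar macrophages and the mixture.

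**Figure D5:**
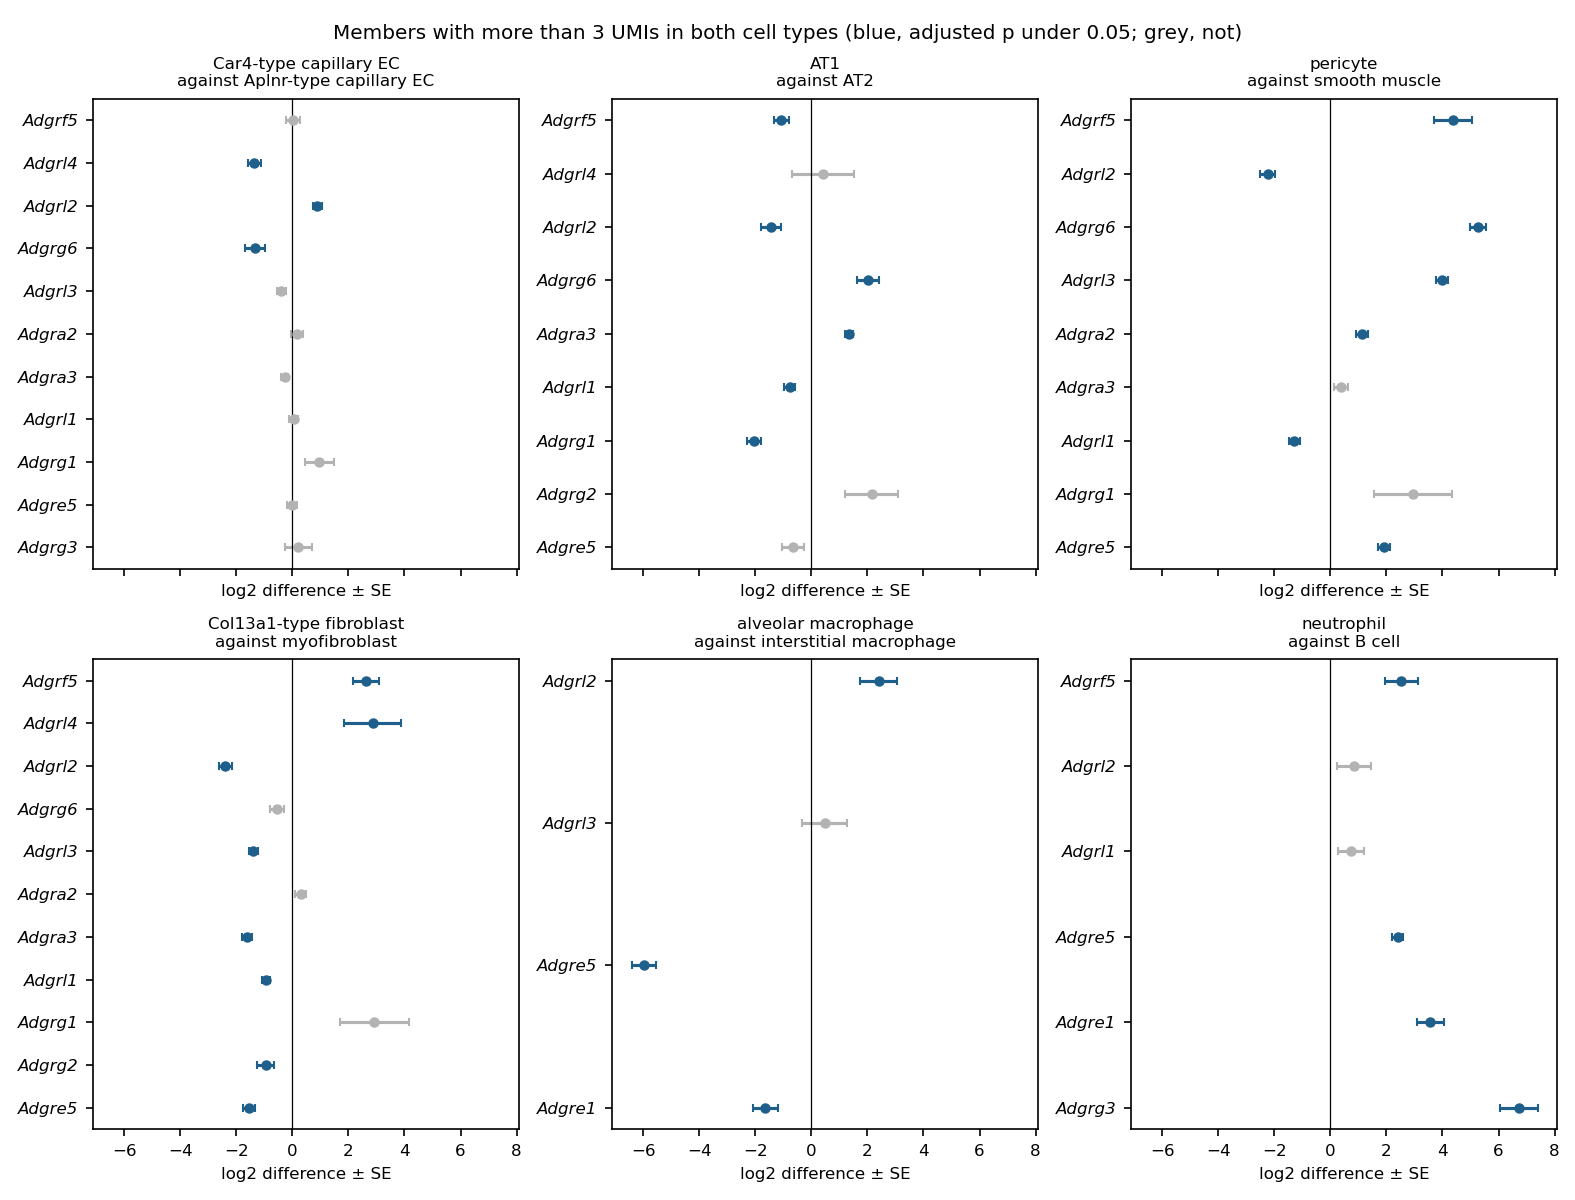
Log2 difference with its SE for the members with more than 3 UMIs in both cell types of each of the 6 planned pairs; blue points passed a Benjamini-Hochberg adjusted p of 0.05 in edgeR and grey points did not. The largest differences are those of Adgrg6 in pericytes over smooth muscle (5.27), Adgrg3 in neutrophils over B cells (6.72), and Adgre5 in alveolar macrophages against the mixed interstitial macrophage cluster (-5.98).

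The 11 members left untested are accounted for by their UMIs. Adgrv1, known from hearing, gave 69 UMIs, 34 of them in myofibroblasts and 13 in club cells, where it was at 5.06, 4.83, and 5.34 CPM. Adgrb2, a brain-type receptor, gave 64, of which 47 were stromal, with 8.32, 11, and 16.8 CPM in Col14a1-type fibroblasts. Adgrb1, known for binding phosphatidylserine on dying cells, gave 28, Adgra1 21, Adgrf4 9, Adgrb3 6, Adgrf2 5, and Adgrf3 2. Adgrf1, Adgrg4, and Adgrg7 had 0 UMIs in all 7642 cells, which shows no more than that they were not detected at this depth.

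The 3 neighbors on chromosome 8, Adgrg5, Adgrg1, and Adgrg3, lie in this order within 121557 bases (chromosome 8, 94923694 to 95045250, GRCm38), with no protein-coding gene between them, and their levels across classes differed. Adgrg5 was highest in immune cells (mean 7.61 CPM), Adgrg1 in epithelium (153 CPM), and Adgrg3 in ECs (17.7 CPM), each without overlap with its next class. By cell type, however, Adgrg3 had its highest mean in basophil or mast cells (118 CPM, mice 3 and 4). Its mean was 29.4 CPM in venous and 2.18 in arterial ECs. In AT2 cells, where Adgrg1 was at 176, 181, and 186 CPM, Adgrg3 was at 1.09, 0, and 1.09 and Adgrg5 at 0, 0.234, and 0. In basophil or mast cells of mice 3 and 4, Adgrg1 and Adgrg3 were both present (164 and 165 and 154 and 82.7 CPM), and Adgrg5 had 0 UMIs. On chromosome 17, Adgrf5 had 22207 UMIs and its neighbor Adgrf1, 35713 bases away, had 0. The strand used in counting is not given in the sources used here; 13 members overlap a gene on the other strand and 0 a protein-coding gene on their own.

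Other genes of the pathway were given by counts. Of 29 listed binding partners, 22 were tested, and 14 were higher and 4 lower in stroma (36.2% and 30.6% of all genes), 9 and 5 in ECs (29.6% and 30.1%), 10 and 9 in epithelium (34.5% and 36.6%), and 3 and 15 in immune cells (37.7% and 38.4%). The stromal count of higher partners includes Col3a1, a marker used to name the stromal clusters. The listed ligands of Adgrg6 were split between classes. On the log2 scale, Col4a1 and Col4a2 were higher in ECs by 3.32 ± 0.12 and 3.07 ± 0.10. Lama2 was higher in stroma by 6.71 ± 0.14, and Prnp, the prion protein, in epithelium by 3.80 ± 0.15. Of 13 G protein alpha subunits, 8 were higher and 2 lower in ECs, 6 and 3 in stroma, 3 and 4 in epithelium, and 2 and 9 in immune cells, beside the same shares of all genes, with Gna14 higher in ECs by 4.37 ± 0.15 and Gna15 in immune cells by 6.32 ± 0.32. Of subfamily C, the cadherin-type receptors that the Adgr symbols leave out, Celsr1 was higher in epithelium by 4.75 ± 0.15 and Celsr2 in ECs by 2.62 ± 0.10 and in epithelium by 0.78 ± 0.10.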

How the data were processed

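The authors loaded 16000 dissociated lung cells of each mouse into 1 well, made 10x v3 3' libraries, and deposited 1 table of unnormalized UMI counts for each mouse. Per the submitters' processing notes, Cell Ranger 3.0.2 and mm10 were used. The series text names 5677 cells, whereas the deposited files list 9644 barcodes, each with at least 500 UMIs. The paper's Seurat normalization and cell types come after the deposited counts and were not used here. All columns of the files belong to a sample. The values of 1 unnamed cluster are not reported here.

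A cell was kept when it had 200 or more detected genes and a mitochondrial share of UMIs of 20% or less. SCTransform (sctransform 0.4.2 in Seurat 5.3.0) was run on all kept cells together, which were then clustered with 30 principal components at resolution 0.8, with the members left out of the variable genes (11 would otherwise have been used). Clusters were named from marker lists, with naming thresholds set after the clusters were seen. Marked doublets (200 kept cells, the highest scanpy 1.11.5 scores at 0.8% per 1000 cells, because the automatic threshold marked under 0.5%) stayed in, and their removal was an alternative. UMIs were summed per mouse and class, or per mouse and type with at least 10 cells, and tested with edgeR 4.0.16 (TMM, filterByExpr, quasi-likelihood F-test, Benjamini-Hochberg over all genes). CPM is the UMIs of a gene scaled to 1e+06 UMIs of the summed cells, and log2 differences come from the fit. The edgeR test gives no SE, so the SE was derived as the size of the log2 difference over the square root of F. Values are given for every member that passed the filter, and UMI totals for the others. DESeq2 1.42.0 and the other alternatives are in the closing section.

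Library totals were 23744510, 22476491, and 25192427 UMIs for mice 2, 3, and 4. Each mouse number marks 1 animal, so it pairs the sums of its types: deviations from the group means had correlations of 0.0762 to 0.302 within a mouse (18 pairs of groups) and -0.233 to 0.0455 between mice. On simulated counts, in which 200 genes had a log2 change of 2, edgeR recovered 100% in the EC comparison (13671 genes) and 95.5% in the capillary pair (8658 genes). The changed genes were drawn from those with higher expected counts, with a fixed spread and no difference between mice. The capillary pair was simulated without the other types. The recovery thus does not extend to members with few UMIs, such as Adgrd1, Adgre4, and Adgrg5, or to the fit over all types. Promoters were read from a RefSeq table (GRCm38.p6). The members and lists were chosen with earlier results of these data known.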

Additional observations from a re-analysis of the deposited data

Results flagged for a closer look

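Some members had signals in the 813 cells that stayed unnamed, above every named type. Adgrg1 was at 491 CPM (42 UMIs in 11 of 31 cells; 363, 763, and 942 CPM in mice 2, 3, and 4) in a cluster led by the platelet genes Pf4, Clec1b, and Nrgn, whereas its highest named type, AT2 cells, was at 181 CPM when pooled. In a 162-cell cluster led by the neuronal genes Uchl1, Pcsk1n, and Sncg, Adgra1 was at 41.1 CPM and Adgrb1 at 20.5 CPM, but its 14 Adgra1 UMIs lay in 1 cell and its 7 Adgrb1 UMIs in 1 cell, of mouse 3, and 14 of the 21 Adgra1 UMIs in all kept cells lay in cells marked as doublets.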

How the results depend on the processing

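Over 15 other settings, 153 of 155 counts of called members stayed within 1.5 times the reported count. The exceptions were the capillary pair (5 members against 3) at clustering resolution 0.4, for which the cause was not tested, and the macrophage pair without mouse 3. Leaving out 1 mouse at a time gave 10 members higher in ECs each time, 2 to 3 in epithelium, 8 to 10 in stroma, 5 in immune cells each time, and 16 in at least 1 type each time. For the pairs it gave 6 to 7 for AT1 against AT2, 2 to 3 for the capillary ECs, 6 to 10 for Col13a1-type fibroblasts against myofibroblasts, 2 to 3 for the macrophages, 3 to 5 for neutrophils against B cells, and 7 to 8 for pericytes against smooth muscle. Of 735 repeats of single class differences, 725 kept their direction and call and 10 lost the call. A setting in which a planned pair could not be formed gave no count and no repeat for that pair, so not every setting covered every pair. Of 450 repeats of single pair differences, 430 kept both and 19 lost the call. The 1 reversal was Adgrl2 in AT1 against AT2 cells, at 0.24 after log-normalization before clustering, where the cause was not tested. With the mouse as a block in the design (the replicate block), every count and every call was as reported: 10 members higher in ECs, 3 in epithelium, 8 in stroma, and 5 in immune cells. The share of cells with a UMI, in the highest class of each tested member, fell with depth for all 16 at both thinnings, to 1000 and 2000 UMIs. Depth limits the members with few UMIs, such as Adgrd1, Adgre4, and Adgrg5, and types with few cells, such as basophil or mast cells.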

Other observations

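Outside the named types, in 143 cells with the division genes Top2a and Mki67 in the lead, which took no class, Adgrf5 was at 475 CPM, Adgre5 at 222 CPM, and Adgrl4 at 66.0 CPM. Dendritic cells of mouse 4 held 44.1 CPM of Adgrg1 and 17.7 CPM of Adgrl4, whereas those of mice 2 and 3 held 2.01 and 0 CPM of Adgrg1 and 0 CPM of Adgrl4.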
